A study of Mus musculus with 6 samples.

Results

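The nuclear genes of the oxidative phosphorylation complexes were followed in mouse leukaemia cells given additional Ikaros. They were chosen by gene symbol alone: the Nduf genes of complex I and its Ndufaf assembly factors, Sdha to Sdhd of complex II, the Uqcr genes and Cyc1 of complex III, Cycs, the Cox4 to Cox8 families of complex IV, and the Atp5 genes of complex V. The symbols matched 91 of the 19936 genes tested, and where a gene had several probe sets the brightest stood for it. Complex I holds 36 of the 91 genes, its assembly factors 7, complex II 4, complex III 9, cytochrome c 1, complex IV 17 and complex V 17. Cox7c, Ndufb1, Ndufb4, Ndufb4b, Ndufb4c and Ndufaf8 had no probe set of their own symbol alone and were not analysed here, and neither were the subunits encoded by mitochondrial DNA.

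The cells were pre-B cells of wild-type C57Bl6 mice, aged 4 weeks, transformed with BCR-ABL1, a tyrosine kinase made by a chromosome fusion, which drives Ph+ acute lymphoblastic leukaemia (ALL). Both groups carry BCR-ABL1 and both were infected with the retroviral vector pMIG, which marks infected cells with green fluorescent protein (GFP). In 3 samples the vector was empty and in the other 3 it carried IKZF1, the gene of the zinc finger protein Ikaros. On day 3 the GFP-positive cells were sorted and their total RNA was hybridised to Affymetrix arrays, 1 per sample, called empty vector 1 to 3 and IKZF1 1 to 3 after the numbers in the titles. The labels do not say whether samples of a group are separate cultures or animals, and name neither the number of clones nor the species or isoform of the insert. A p-value therefore speaks only to the spread among the 6 samples, and that spread may be technical.

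Oxidative phosphorylation passes electrons from NADH through complex I, and from succinate through complex II, to ubiquinone, then through complex III and cytochrome c to complex IV, which reduces oxygen. Complexes I, III and IV pump protons across the inner mitochondrial membrane, and complex V, the ATP synthase, makes ATP from their return. Ikaros is a DNA-binding regulator of lymphoid development and its gene is often lost in this leukaemia, where it has been described as limiting the supply of glucose and energy.

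Values below are log2(intensity + 1), called levels, and a difference is the IKZF1 mean minus the empty vector mean on that scale with its standard error (SE, 3 arrays per group). Differences were tested with limma, with Benjamini-Hochberg adjustment over all 19936 genes and a threshold of 0.05. A second limma fit, called the replicate block, compared arrays of the same replicate number, because arrays with one number deviated together. The level of Ikzf1 itself was 11.85, 11.78 and 11.98 on empty vector and 13.09, 13.14 and 13.06 on IKZF1 arrays, which is 2.34-fold higher (adjusted p = 0.00206); how far this probe set reads the insert is not known. Empty vector 3 stood apart from the other arrays. It lay at 41.7 on the first principal component over all genes, against -24.5 to 2.7 for the other arrays, with IKZF1 2 at the far end. In both groups array 2 lay lowest and array 3 highest on that component. That component took 51.3% of the variance and did not separate the groups. The second took 33.9% and did separate them. On it the empty vector arrays lay at 20.2, 25.9 and -2.3 and the IKZF1 arrays at -12.3, -14.5 and -16.9. Members that depend on empty vector 3 and IKZF1 2 are given without these arrays as well. Leaving out both sets empty vector 1 and 2 beside IKZF1 1 and 3, so differences between replicate numbers enter those values.

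Of the 91 members, 88 lay above the background set by 1194 olfactory and vomeronasal receptor genes, of which 95% had a mean level below 6.12 in the empty vector group and 6.24 in the IKZF1 group. The members at background were Cox6b2, Cox7b2 and Cox8b. The arrays' identity was checked on 11 measured pre-B cell markers, all above background in their group means at a median level of 12.26, with summed intensities of 62659 to 68980 on empty vector and 63807 to 67384 on IKZF1 arrays. The recombinase genes Rag1 and Rag2 varied between arrays of a group, Rag2 from 5.53 to 8.95 in empty vector cells, and Vpreb2 was lower with the replicate block (-0.38, adjusted p = 0.0301). Of other cell types, 1 of 8 myeloid markers, 2 of 5 T cell markers, 1 of 2 erythroid, 2 of 4 megakaryocyte, 0 of 3 NK cell and 4 of 5 stromal markers lay above background. Summed T cell markers were 309 to 321 on empty vector and 343 to 438 on IKZF1 arrays, and stromal markers 485 to 565 and 560 to 704. Summed myeloid markers were 422 to 470 and 403 to 470. Lyz2, the myeloid marker above background, was lower in IKZF1 cells (-0.47, adjusted p = 0.204 by group alone). The stromal marker Col1a1 was higher with the replicate block (0.30, adjusted p = 0.0499). The part of other cell types in the members' values was not tested.

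Promoters were read for the members because factors called nuclear respiratory factor 1 (NRF1), GABP of the Ets family and YY1 are known to act at many nuclear genes of respiration. A window of 300 bases, 250 before and 50 after the annotated start, was found in RefSeq (mouse build GRCm38.p6) for 74 of the 91 members. The stretches below run from 100 bases before the start to 30 after it, 5′ to 3′ on the gene's strand. The first 4 are those members past the threshold with the replicate block that have a window, and Atp5g2 and Ndufa9 are the members of smallest p that hold the NRF1 and the Ikaros letters there. Capitals mark a searched motif on either strand: CCGGAAG in Uqcrh and Atp5md (both read here as CTTCCGG), 2 overlapping copies of GCGCATGC in Atp5g2, and TGGGAA, read here as TTCCCA, in Ndufa9.
Ndufs5 (chr4:123718157-123718286, minus strand): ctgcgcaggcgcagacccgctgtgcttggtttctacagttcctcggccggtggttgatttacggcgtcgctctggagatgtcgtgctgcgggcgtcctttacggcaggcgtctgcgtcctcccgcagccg
Uqcrh (chr4:116075041-116075170, minus strand): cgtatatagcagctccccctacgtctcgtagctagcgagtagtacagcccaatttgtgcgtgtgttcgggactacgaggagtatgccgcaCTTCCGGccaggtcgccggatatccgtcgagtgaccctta
Cox7a1 (chr7:30184071-30184200, plus strand): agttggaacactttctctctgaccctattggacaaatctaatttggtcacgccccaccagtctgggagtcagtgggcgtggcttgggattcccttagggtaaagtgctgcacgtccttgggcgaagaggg
Atp5md (chr19:47090618-47090747, minus strand): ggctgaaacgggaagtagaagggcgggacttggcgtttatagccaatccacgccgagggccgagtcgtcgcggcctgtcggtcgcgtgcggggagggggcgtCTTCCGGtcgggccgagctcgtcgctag
Atp5g2 (chr15:102671018-102671147, minus strand): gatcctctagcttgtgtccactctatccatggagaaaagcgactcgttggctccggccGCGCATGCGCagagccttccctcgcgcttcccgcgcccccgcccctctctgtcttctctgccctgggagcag
Ndufa9 (chr6:126849115-126849244, minus strand): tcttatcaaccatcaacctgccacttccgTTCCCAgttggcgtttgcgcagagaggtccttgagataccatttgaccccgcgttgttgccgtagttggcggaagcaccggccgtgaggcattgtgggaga

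The NRF1 letters GCGCATGC, with their complement GCATGCGC, stood in the windows of 13 of 74 members (17.6%) and of 4.27% of the 15614 tested genes with a window. The GABP/Ets letters CCGGAAG stood in 18 members (24.3%) and in 13.6% of tested genes. The YY1 letters AAGATGGCG stood in 7 members (9.46%) and in 2.29%. The Ikaros core TGGGAA stood in 14 members (18.9%) and in 27.1% of tested genes. The median GC content of the members' windows was 58.3%, against 52.7% over all windows of the table. Members that hold the NRF1 letters had a median difference of -0.08, close to the -0.07 of members without them. Those with the Ikaros letters had a median of -0.05 against -0.08 without. For the YY1 letters the medians were -0.05 with and -0.08 without. Those with the GABP/Ets letters had a median of -0.01 against -0.10, and both Uqcrh, which was higher, and Atp5md, which was lower, hold them. A match of letters is no evidence that a factor binds there.

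Most members differed little between the groups, and the differences leaned towards lower levels in IKZF1 cells. The median over the 91 members was -0.07, with 64 below 0 and 27 above, and 77 of them differed by less than 0.25 in either direction. Over all genes tested the median was 0.03 and 40.8% lay below 0, against 70.3% of the members. In limma 0 of 91 members passed the threshold, where 2.25% of all genes passed. An unadjusted p below 0.05 was found for 24 members, beside 18.4% of all genes and 25.6% of the genes at the members' levels described below. With the replicate block 6 passed, 1 higher (Uqcrh) and 5 lower (Ndufs5, Ndufaf6, Atp5md, Cox7a1 and Cox6a2), which is 6 of 91 beside 7.21% of all genes. The share of members past the threshold was thus not above the background of the arrays. In RNA from a bulk of cells, less RNA per cell and fewer cells that carry it cannot be told apart.

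The arrays of the groups did not overlap for 27 members that were lower in IKZF1 cells, beside 11.3% of all genes, and for 8 that were higher, beside 15.2% of all genes. SEs of the members ran from 0.05 to 0.39 with a median of 0.07, so that a single member is measured to about that error. A difference beyond 0.5 was seen in 3 members, Cox7a1, Cox6a2 and Ndufaf6.

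**Figure D1:**
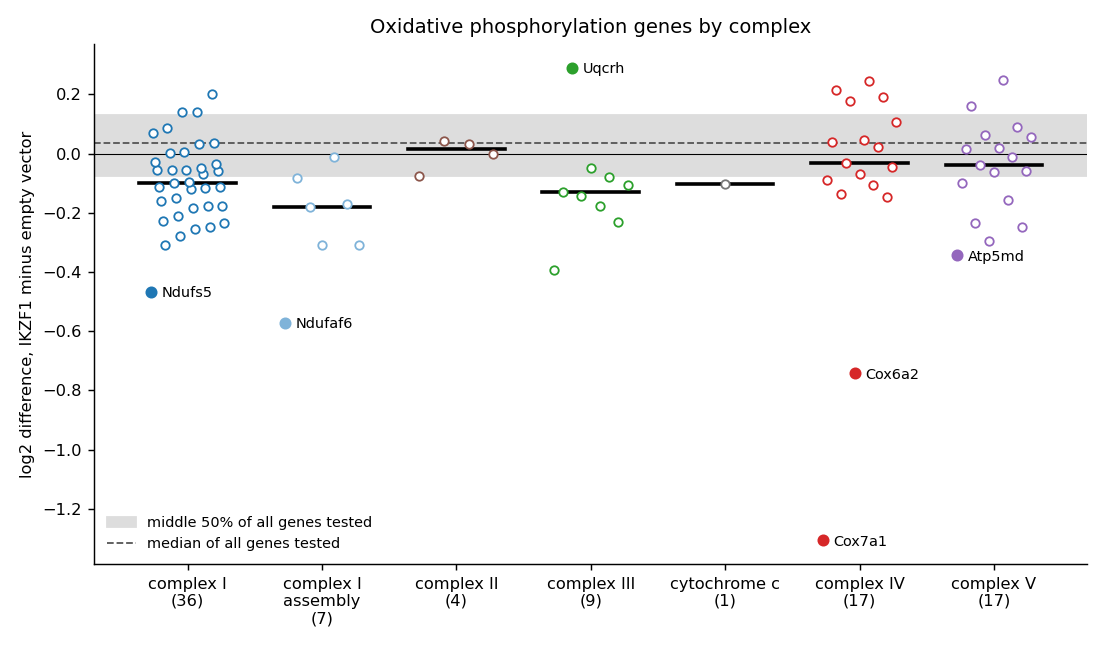
Log2 difference of each member (IKZF1 minus empty vector, points) by complex, with the number of members in brackets, the median of each complex (bars), the middle 50% of all genes tested (grey band) and their median (dashed line). Filled, named points passed the threshold with the replicate block; complex I, its assembly factors and complex III lie mostly below 0, and Cox7a1 at -1.31 lies far below the rest, followed by Cox6a2 at -0.74 and Ndufaf6 at -0.57.

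Levels of the members are high, and bright genes on these arrays differed otherwise than dim ones, so each member was set beside the 200 other genes nearest to it in mean level. These 8043 genes had a median difference of -0.01 and 52.4% lay below 0. Relative to them the members' median was -0.05, and 60 of 91 members lay below their neighbours. Among these genes 3.41% passed the threshold in limma and 10.9% with the replicate block, beside 0 and 6 of the 91 members. Their groups did not overlap in the lower direction for 17.5% and in the higher for 15.4%, beside the 27 and 8 members. The median SD between arrays was 0.08 over members in the empty vector group and 0.07 in the IKZF1 group, beside 0.11 and 0.09 over these genes.

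**Figure D2:**
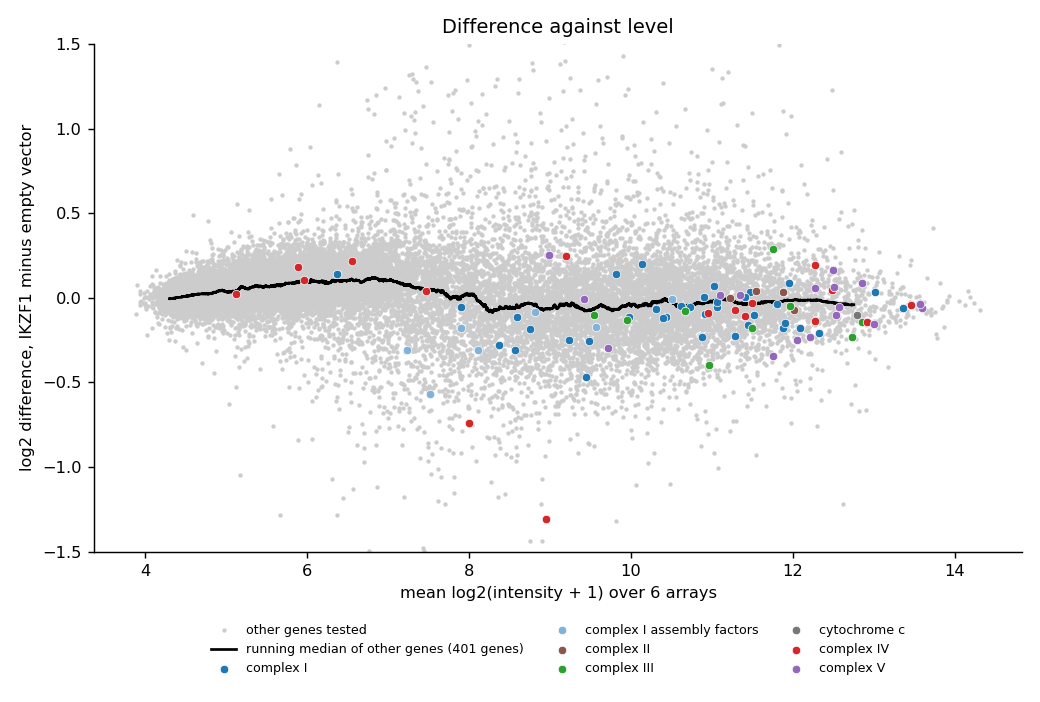
Log2 difference (IKZF1 minus empty vector) against the mean level of each gene over the 6 arrays, for the members (coloured by complex) and for all other genes (grey), with the running median of 401 other genes (line). Members crowd at levels above 8, where the line lies near or below 0, while the line lies above 0 at levels from 5 to 7; 52 other genes lie beyond the plotted range of 1.5.

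The median deviation of the members from their 6-array means was 0.07, 0.01 and 0.05 on empty vector 1, 2 and 3, and -0.04, -0.04 and -0.01 on IKZF1 1, 2 and 3. All 3 empty vector arrays therefore lay above all 3 IKZF1 arrays, with empty vector 2 the lowest of its group. Relative to genes of the same level the medians were 0.04, 0.02 and 0.01 on empty vector and -0.04, -0.01 and -0.02 on IKZF1 arrays. The members varied among themselves: 50 of 91 were lowest of the empty vector arrays on array 2, and 46 were highest on array 3.

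**Figure D3:**
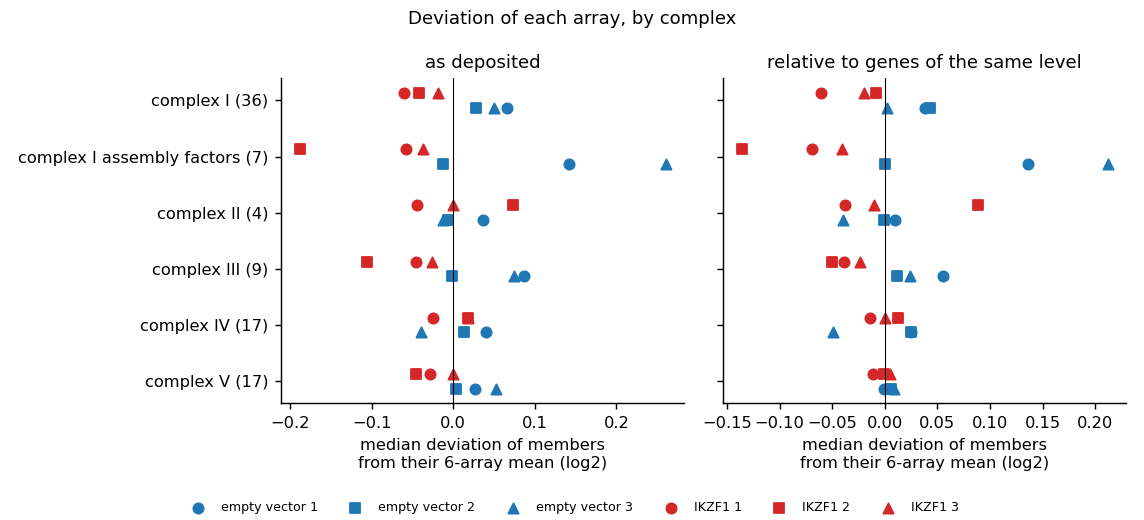
Median deviation of each complex's members from their 6-array means on each array (points; blue empty vector, red IKZF1; circle, square and triangle for arrays 1, 2 and 3), as deposited (left) and relative to genes of the same level (right). Blue lies to the right of red for complex I, its assembly factors and complex III in both panels, while the colours mix for complexes II and IV. For complex V blue lies to the right of red on the left only.

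Complex I, the NADH dehydrogenase, had the lower values spread over most of its subunits. Of its 36 genes 27 lay below 0, with a median of -0.10 (-0.07 relative to genes of the same level). The Ndufb genes, accessory subunits of the membrane arm, had a median of -0.18 with 8 of 9 below 0, and all 3 Ndufv genes lay between -0.26 and -0.18. The Ndufs genes had a median of 0.03 and the Ndufa genes of -0.06. The 6 measured core subunits (Ndufv1, Ndufv2, Ndufs1, Ndufs3, Ndufs7 and Ndufs8), which carry electrons from NADH to ubiquinone, had a median of -0.04 with as many above 0 as below.

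Ndufs5 encodes an accessory subunit on the side of complex I that faces the intermembrane space. Its levels were 9.71, 9.50 and 9.81 on empty vector and 9.20, 9.16 and 9.26 on IKZF1 arrays. Every IKZF1 array lay below every empty vector array. The difference was -0.47 ± 0.09 (SE), or -27.6%, with an adjusted p of 0.0587 that fell to 0.0235 with the replicate block. A further probe set, shared by Ndufs5 and its pseudogene Ndufs5-ps, was -0.61. By group alone it passed without empty vector 2 (-0.55, adjusted p = 0.0499) and not without any other array (adjusted p-values of 0.057 to 0.249).

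Ndufb10, an accessory subunit of the membrane arm, had levels of 8.45, 8.47 and 8.60 in empty vector and 8.20, 8.13 and 8.35 in IKZF1 cells. The groups did not overlap, and the difference was -0.28 ± 0.08 (adjusted p = 0.145, 0.0558 with the block). Ndufv2, a core subunit with an iron-sulfur cluster, had levels of 11.95, 11.93 and 12.02 and then 11.79, 11.81 and 11.77. These did not overlap either, with a narrow difference of -0.18 ± 0.06 (adjusted p = 0.175, 0.152 with the block). Ndufv1, the subunit that binds NADH and its flavin, gave 11.07, 11.06 and 10.86 and then 10.79, 10.78 and 10.73. Its lowest empty vector array was number 3, and the difference was -0.23 ± 0.08 (adjusted p = 0.182, 0.0966 with the block).

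Ndufb3, Ndufb6, Ndufb5 and Ndufa9, further accessory subunits, were also apart and lower, with differences of -0.31, -0.21, -0.23 and -0.16 and adjusted p-values of 0.201 to 0.208. Ndufb7, on the intermembrane side, was the only complex I member apart in the higher direction, at 0.14 ± 0.06 (adjusted p = 0.303). The largest positive difference of the complex was that of Ndufs6, at 0.20 ± 0.10, and its groups overlapped. The brightest member, Ndufc2, had 13.31, 13.31 and 13.55 in empty vector and 13.34, 13.29 and 13.36 in IKZF1 cells. Its groups overlapped, at -0.06 ± 0.08. Ndufab1, the mitochondrial acyl carrier protein, was -0.12 ± 0.13, and Ndufa4, named for complex I but found with complex IV, was 0.01 ± 0.08.

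All 7 measured Ndufaf assembly factors, which help to build complex I and are not part of it, lay below 0, with a median of -0.18. Ndufaf6 acts early in building the arm that reaches into the matrix. It had levels of 7.78, 7.62 and 8.01 on empty vector and 7.21, 7.03 and 7.45 on IKZF1 arrays. The groups did not overlap, and within each replicate number the IKZF1 array was the lower. The difference of -0.57 ± 0.14 (-32.7%) had an adjusted p of 0.0999 and of 0.0117 with the block. With empty vector 3 and IKZF1 2 both left out, where replicate numbers no longer match, it was -0.37 (adjusted p = 0.121). The median of the 7 factors was then -0.10.

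Ndufaf7, a methyltransferase of the mitochondrial matrix, had levels of 8.08, 7.91 and 7.97 and then 7.76, 7.76 and 7.89. These were apart by little, at -0.18 ± 0.07 (adjusted p = 0.253). Ndufaf5, which hydroxylates the core subunit Ndufs7, had 7.38, 7.23 and 7.57 and then 7.20, 6.85 and 7.20. The groups were apart, at -0.31 ± 0.13 (adjusted p = 0.277, 0.0599 with the block). Ndufaf2 was -0.31 ± 0.16, Ndufaf1 -0.17 ± 0.10 and Ndufaf4 -0.08 ± 0.08, each with overlapping groups. Ndufaf3, the brightest of them, had 10.55, 10.71 and 10.25 and then 10.51, 10.57 and 10.41, and its difference was -0.01 ± 0.12.

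Complex II, succinate dehydrogenase, is also an enzyme of the tricarboxylic acid (TCA) cycle. Its 4 members differed least, with differences from -0.07 to 0.04. None had groups that did not overlap, beside 26.5% of all genes and 32.8% of genes at the members' levels. The median was 0.01, and it turned to -0.02 without empty vector 3 and -0.03 without IKZF1 2. Sdha, the flavoprotein and brightest of them, had levels of 12.09, 11.98 and 12.09 on empty vector and 12.01, 11.998 and 11.93 on IKZF1 arrays, a difference of -0.07 ± 0.06. Sdhc and Sdhd anchor the enzyme in the membrane. The levels of Sdhc were 11.54, 11.57 and 11.45 and then 11.49, 11.60 and 11.59, at 0.04 ± 0.06. Those of Sdhd were 11.85, 11.79 and 11.94 and then 11.74, 12.003 and 11.93, at 0.03 ± 0.09. Both overlapped widely, and Sdhb, the iron-sulfur subunit, was -0.003 ± 0.07. Adjusted p-values of the 4 genes were 0.551 to 0.988, which does not show that they were equal.

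Complex III, the cytochrome bc1 complex, had 8 of 9 members below 0 and a median of -0.13, and the exception was the only member to pass in the higher direction. Uqcrh, the hinge protein next to cytochrome c1, had levels of 11.67, 11.63 and 11.52 on empty vector and 11.94, 11.96 and 11.79 on IKZF1 arrays. All IKZF1 arrays were above all empty vector arrays. The difference was 0.29 ± 0.07 (22.3%), with an adjusted p of 0.112 and of 0.0472 with the replicate block. It was 0.22 with empty vector 3 and IKZF1 2 left out, where replicate numbers no longer match (adjusted p = 0.202).

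Uqcrq, a small subunit near cytochrome b, had levels of 11.32, 11.31 and 10.85 and then 10.66, 10.90 and 10.74. The groups overlapped because empty vector 3 lay with the IKZF1 arrays. The difference was -0.39 ± 0.14 (adjusted p = 0.220, 0.0979 with the block). Once empty vector 3 was left out, with replicate numbers unmatched, it became -0.55 (adjusted p = 0.0256), and -0.62 with IKZF1 2 left out too (adjusted p = 0.0121). Without one of the other arrays it did not pass (adjusted p-values of 0.322 to 0.536). Uqcrc2, a core protein and the brightest member of the complex, had 12.92, 12.92 and 12.92 and then 12.80, 12.73 and 12.80. These were apart, at -0.14 ± 0.05 (adjusted p = 0.240). Cyc1, the catalytic cytochrome c1, was -0.18 ± 0.08, and Uqcrfs1, the Rieske iron-sulfur protein, was -0.10 ± 0.06. Both were apart and lower, with adjusted p-values of 0.319 and 0.410.

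Cycs, the electron carrier between complexes III and IV, had levels of 12.81, 12.73 and 12.98 and then 12.76, 12.60 and 12.84. The groups overlapped, at -0.10 ± 0.09 (adjusted p = 0.584). With empty vector 3 and IKZF1 2 left out its difference was 0.03, and without either alone it was -0.035 and -0.0364. Replicate numbers of the groups did not match in these settings, and within each number the IKZF1 array was the lower.

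Complex IV, cytochrome c oxidase, had no common direction, with 9 members below 0 and 8 above and a median of -0.03, which was 0.0017 without empty vector 1 and -0.0037 without empty vector 3. It held the members with the largest differences, Cox7a1 and Cox6a2, the isoforms known from heart and skeletal muscle. Cox7a1 had levels of 9.60, 10.44 and 8.76 on empty vector and 8.38, 8.44 and 8.08 on IKZF1 arrays. The groups did not overlap, but the empty vector arrays spanned a wide range, with array 2 highest and array 3 lowest. The difference was -1.31 ± 0.39 (-59.6%), with an adjusted p of 0.158 and of 0.0367 with the block. By group alone, with replicate numbers unmatched, it was -1.73 without empty vector 3 (adjusted p = 0.0161) and -1.80 without IKZF1 2 as well (adjusted p = 0.0227). Without empty vector 2, the highest array, it was -0.89 (adjusted p = 0.166), and it did not pass without any of the other arrays either (adjusted p-values of 0.269 to 0.412).

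Cox6a2 had levels of 8.37, 8.82 and 7.93 and then 7.54, 7.85 and 7.51, in the same order of arrays within the empty vector group as Cox7a1. The groups were apart by little, between empty vector 3 and IKZF1 2. The difference was -0.74 ± 0.22 (-40.2%), with an adjusted p of 0.159 and of 0.0263 with the block. With replicate numbers unmatched, it was -0.96 without empty vector 3 (adjusted p = 0.0263) and -1.07 without IKZF1 2 as well (adjusted p = 0.0192). Without empty vector 2 it was -0.52 (adjusted p = 0.194), and without one of the other arrays the adjusted p was 0.267 to 0.414. Of 11 other skeletal muscle genes, a list chosen after values were seen, 8 lay above background and 0 passed the threshold in limma by group alone or with the block. Their differences ran from -0.07 to 0.15, and their summed intensity was 1103 to 1162 on empty vector and 1090 to 1271 on IKZF1 arrays.

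**Figure D4:**
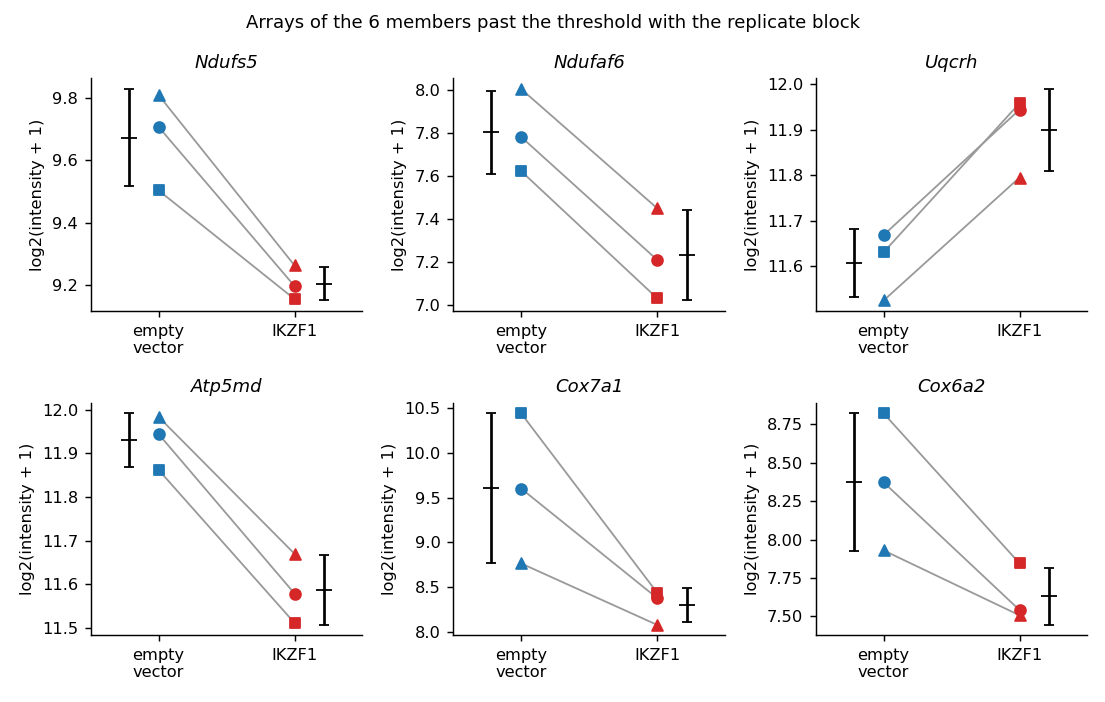
Levels, log2(intensity + 1), on every array of the 6 members that passed with the replicate block, with lines that join arrays of the same number (circle 1, square 2, triangle 3) and the mean with its SD beside each group. Every line falls except in Uqcrh, where every line rises, and Cox7a1 and Cox6a2 spread widely in the empty vector group; the vertical axes differ between panels and do not start at 0.

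The common subunits of complex IV gave smaller values of both signs. Cox6b1, on the intermembrane side, had 12.19, 12.10 and 12.25 and then 12.35, 12.38 and 12.38. The IKZF1 arrays were all higher, by 0.19 ± 0.06 (adjusted p = 0.175, 0.13 with the block). Cox7a2l, a relative of Cox7a that links complexes III and IV and is not a plain subunit, was 0.25 ± 0.09 on its brightest probe set (adjusted p = 0.231) and -0.04 on the other, so its probe sets disagree. Cox7b had 13.002, 12.98 and 12.97 and then 12.90, 12.76 and 12.85, at -0.15 ± 0.06. It and Cox5b, at -0.14 ± 0.07, were both apart and lower (adjusted p-values of 0.269 and 0.334). The brightest member, Cox6c, had 13.46, 13.41 and 13.58 and then 13.46, 13.37 and 13.49, with overlapping groups at -0.05 ± 0.07. 

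Each restricted isoform was set against its common paralog as a ratio within each array. This asks whether the pair changed unequally. Cox7a1 over Cox7a2 had log2 ratios of -1.73, -0.86 and -2.58 on empty vector and -2.89, -2.71 and -3.26 on IKZF1 arrays. The groups did not overlap, and the change was -1.24. Cox7a2 itself had 11.33, 11.30 and 11.34 and then 11.27, 11.15 and 11.34, at -0.07 ± 0.07, so that the change of the ratio lay almost wholly in Cox7a1. Cox6a2 over Cox6a1 had -3.21, -2.65 and -3.56 and then -3.91, -3.62 and -4.02. These did not overlap either, with a change of -0.71, and Cox6a1 itself had 11.58, 11.47 and 11.49 and then 11.45, 11.47 and 11.52, at -0.03 ± 0.06.

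For both pairs the exact 2-sided permutation test returned p = 0.1, which is the lowest value possible with 3 arrays a group, and 0.22 after Benjamini-Hochberg adjustment over the 11 pairs compared. The other restricted isoforms sat low on the array. Cox4i2, known from lung and low oxygen, had 7.44, 7.45 and 7.47 and then 7.29, 7.69 and 7.49, at 0.04 ± 0.10. Its common paralog Cox4i1 had 11.08, 11.03 and 10.86 and then 10.90, 10.93 and 10.87, at -0.09 ± 0.07. Both overlapped between the groups. Cox8c, known from testis, had 6.38, 6.52 and 6.43 and then 6.51, 6.82 and 6.64, at 0.22 ± 0.09. Its common paralog Cox8a had 12.48, 12.43 and 12.44 and then 12.49, 12.49 and 12.51, at 0.05 ± 0.05. The groups were apart only for Cox8a, by a small step. Ndufa4l2, known from low oxygen, had 6.33, 6.23 and 6.35 and then 6.14, 6.70 and 6.50, at 0.14 ± 0.14. Its paralog Ndufa4 had 11.45, 11.23 and 11.51 and then 11.38, 11.40 and 11.43. Both overlapped.

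The isoforms at background carry no level of the transcript. Cox6b2 had 5.86, 5.79 and 5.74 and then 5.93, 6.13 and 5.87, at 0.18. Cox7b2 had 5.21, 5.08 and 5.06 and then 5.10, 5.19 and 5.12, at 0.02, and Cox8b had 5.82, 5.97 and 5.92 and then 5.96, 6.09 and 5.99, at 0.11. None of these 6 restricted isoforms passed by group alone or with the block.

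Complex V, the ATP synthase, had 10 members below 0 and 7 above, with a median of -0.04 (0.01 relative to genes of the same level). The median was -0.09 without empty vector 2 and -0.01 without empty vector 3. By part of the enzyme, the 4 genes of the peripheral stalk had a median of -0.15, the 5 of the catalytic head of -0.04, the 3 of the rotating c ring of 0.06 and the 5 small membrane subunits of 0.01. Atp5md, a small membrane subunit needed for dimers of the synthase, had levels of 11.94, 11.86 and 11.98 on empty vector and 11.58, 11.51 and 11.67 on IKZF1 arrays. The groups were well apart. The difference was -0.34 ± 0.07 (-21.2%), with an adjusted p of 0.0618 and of 0.0322 with the block, and its 3 probe sets ran from -0.41 to -0.34.

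Atp5h, subunit d of the stalk, had 12.36, 12.29 and 12.34 and then 12.09, 12.03 and 12.16. The groups were apart, at -0.23 ± 0.06 (adjusted p = 0.119, 0.0815 with the block). Atp5l, the small subunit g, had 9.90, 9.81 and 9.88 and then 9.69, 9.40 and 9.62. It was apart at -0.30 ± 0.09 (adjusted p = 0.155, 0.0640 with the block), and its 6 probe sets lay between -0.41 and -0.21. Atp5pb, subunit b of the stalk, was -0.25 ± 0.09 on its brightest probe set (adjusted p = 0.233) and -0.05 on the other.

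The genes of the catalytic head lay close to 0. Atp5a1 and Atp5b, its alpha and beta subunits, were 0.09 ± 0.06 and -0.04 ± 0.05, and Atp5c1, the central gamma shaft, was -0.10 ± 0.06. Atp5d, the delta subunit and brightest member of the complex, had 13.62, 13.63 and 13.64 and then 13.54, 13.60 and 13.56. These did not overlap, although the difference was only -0.06 ± 0.05 (adjusted p = 0.555). Among the small membrane subunits Atp5k, subunit e, was 0.25 ± 0.12 and apart in the higher direction (adjusted p = 0.340), opposite to its neighbour Atp5l.

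A family of 3 genes encodes the mature c subunit of the rotor, Atp5g1, Atp5g2 and Atp5g3, and their values went different ways. Atp5g2 had levels of 13.09, 13.10 and 13.04 and then 12.88, 12.91 and 12.97. It was lower on all IKZF1 arrays, by -0.16 ± 0.06 (adjusted p = 0.225). Atp5g3 had 12.43, 12.35 and 12.45 and then 12.50, 12.66 and 12.57. It was higher on all of them, by 0.16 ± 0.07 (adjusted p = 0.265). The log2 ratio of Atp5g3 over Atp5g2 was -0.65, -0.75 and -0.59 and then -0.38, -0.25 and -0.41, a change of 0.32, and that of Atp5g1 over Atp5g2 changed by 0.22. Atp5g1 over Atp5g3 changed by -0.10. In each of these pairs the groups did not overlap, with an exact 2-sided permutation p of 0.1 (adjusted 0.22). The 3 pairs share their genes and are not independent of each other.

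**Figure D5:**
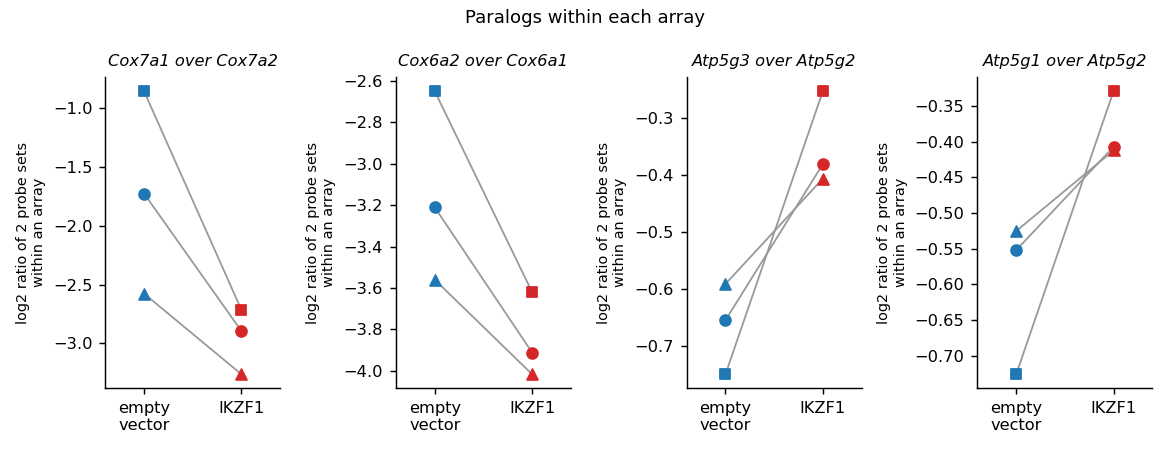
Log2 ratio of a gene over its paralog within each array, for 4 of the 11 pairs, with lines that join arrays of the same number (circle 1, square 2, triangle 3). The ratio was lower on all IKZF1 arrays for Cox7a1 over Cox7a2 and Cox6a2 over Cox6a1, and higher on all of them for Atp5g3 and Atp5g1 over Atp5g2; the height of a ratio compares different probes and carries no meaning, and the vertical axes differ.

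Of the members, 18 had more than 1 probe set, and 14 of these had the same sign on all of them; the exceptions were Cox6c, Cox7a2l, Ndufc1 and Uqcr11. The median spread of the difference between probe sets of a member was 0.07, about as large as the SE of a member. The 3 probe sets shared by Cox7c and Gm12338 were -0.20, -0.17 and -0.19, and those shared by Ndufb4 and Ndufb4b were -0.14 and -0.09. Many members have processed pseudogenes in the mouse genome whose sequence a probe can share, and overlap of the probe sets with them was not examined. A further probe set may itself read such a copy, so agreement between probe sets is no independent check. Members with 1 probe set or several are uncertain to that extent.

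Other nuclear genes of mitochondria also lay mostly below 0. Of 186 genes in 6 lists 154 lay below 0 (82.8%), with a median of -0.14. Below 0 lay 40.8% of all genes and 52.4% of genes at the subunits' levels, which were not matched to the levels of these lists. In limma 6 of the 186 passed, beside 2.25% of all genes and 3.41% of genes at the subunits' levels, and with the replicate block 26 passed, beside 7.21% and 10.9%. All of these were lower. The count of 6 was 0 without empty vector 1, empty vector 2, IKZF1 1 or IKZF1 3, 1 without IKZF1 2 and 10 without empty vector 3. Of 37 assembly factors outside the Ndufaf genes 31 lay below 0, with a median of -0.13. Cox14, which acts in the assembly of complex IV, passed by group alone (-0.41 ± 0.06, adjusted p = 0.0344), and with the block Lyrm7 (-0.31) and Bcs1l (-0.38), which insert the Rieske protein into complex III, and Nubpl (-0.38), which brings iron-sulfur clusters to complex I, passed too. Of 18 genes of pyruvate entry and the TCA cycle 15 lay below 0 (median -0.15). None passed by group alone. An unadjusted p below 0.05 was found for 7 of the 18, beside 18.4% of all genes and 25.6% of genes at the subunits' levels. With the block, where 7.21% of all genes passed, Suclg2 (-0.39), a subunit of succinyl-CoA ligase, Dld (-0.39), shared by the pyruvate and oxoglutarate dehydrogenases, and the pyruvate carrier Mpc1 (-0.32) were lower.

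Among 17 regulators of mitochondrial gene expression 13 lay below 0 (median -0.08). Tfb1m, which methylates mitochondrial ribosomal RNA, was lower by group alone (-0.66 ± 0.11, adjusted p = 0.0369), and Tfam (-0.38), which packs mitochondrial DNA, and Myc (-0.39), a driver of growth genes, were lower with the block. Of 77 mitochondrial ribosomal proteins 68 lay below 0 (median -0.15), and 3 passed by group alone (beside 2.25% of all genes) and 12 with the block (beside 7.21%). The 3 were Mrpl52, Mrpl24 and Mrps15 (-0.63, -0.68 and -0.42, adjusted p-values of 0.0284, 0.0316 and 0.0300). Of 29 genes of protein import and cristae 21 lay below 0 (median -0.09), with Tomm20, an import receptor, lower by group alone (-0.54 ± 0.10, adjusted p = 0.0461) and 4 lower with the block. Of 8 carriers and porins 6 lay below 0 (median -0.11) and 0 passed in either fit. An unadjusted p below 0.05 was found for 3 of the 8 (Slc25a4, Vdac1 and Vdac3), beside 18.4% of all genes and 25.6% of genes at the subunits' levels. Whether these lists differ from the subunits was not tested.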

How the data were processed

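Total RNA of 6 samples was measured on Affymetrix arrays. The authors' deposited table gives probe set intensities, normalized by RMA, as named in the submitters' processing notes; not given in the sources used here are its version and settings. These deposited intensities are linear (11.07 to 23523, array medians 100.2 to 107.2). RMA equalises distributions between arrays, so a shift shared by most genes would be reduced, and dim probe sets hold background.

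Of 35421 probe sets, 21789 pair with 1 gene symbol in the platform annotation, 1621 with several, and 12011 have no name here. Gene numbers served to update 21698 symbols, accessions 3, and 88 were kept; 2 symbols changed. The brightest probe set of each gene was used (1001 genes had several), which gave 19936 genes with no filter on level. Values are log2(intensity + 1), with a pseudocount of 1. Groups came from the stated transduction and were compared in R 4.3.3 by limma 3.58.1 (eBayes after lmFit, 2-sided, group only), with Benjamini-Hochberg adjustment over all genes and a threshold of 0.05; the script was tested on simulated data. Ratios of paralogs used an exact permutation test in scipy 1.17.1.

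Titles number the arrays 1 to 3 in both groups without saying what a number marks. Over all genes, same-numbered arrays deviated together from the group means, with r = 0.24, 0.60 and 0.66, every pair above the 0.1 set for taking numbers as pairs. Of different numbers, empty vector 1 with IKZF1 2 also reached 0.11, and the others lay between -0.68 and -0.03. Over the 91 members alone the same-numbered pairs gave -0.06, 0.42 and 0.49, and empty vector 3 with IKZF1 1 gave 0.13, so the first pair did not deviate together in these genes. The blocked value therefore stands beside calls it changes.

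The members and lists were chosen with earlier results of these data known. Every member could be named. Values on each array were given for the 3 members of smallest p and the brightest member of a complex, members whose call changes with the block, and restricted isoforms with their common paralogs. Of other lists, members past the threshold were named, or else the 3 of smallest p. Pseudocount, level filter, normalization, probe set rule, prior, array weights, block and left-out arrays were varied.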

Additional observations from a re-analysis of the deposited data

How the results depend on the processing

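The count of members past the threshold was 0 by group alone. It was 1 with a pseudocount of 32 (Atp5md), with a level of at least 7 (Ndufs5) and with an intensity trend in the prior (Atp5md), and 2 with cyclic loess or the level trend removed (both Ndufs5 and Atp5md). It was 6 with the replicate block and 6 with array weights, whose estimate stopped before its own tolerance; the weights called Ndufv1 and Uqcrq in place of Ndufaf6 and Uqcrh, with 7.43% of all genes called. Leaving out single arrays gave 0 to 3, the 3 without empty vector 3 (Cox6a2, Cox7a1 and Uqcrq), while all genes past the threshold ranged from 24 to 947. With both empty vector 3 and IKZF1 2 left out, chosen after seeing the data and unbalanced in replicate number, it was 3. For the other mitochondrial lists the count of 6 became 11 with a pseudocount of 32, 25 with array weights, 26 with the block, 0 to 10 without single arrays (10 without empty vector 3) and 11 without both. The cause was not tested.

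The members' median of -0.07 stayed below 0 under every alternative: -0.0471 with quantile normalization, -0.0468 with cyclic loess, -0.0422 with the level trend removed, -0.056 without both arrays, -0.17 with arrays centred on their medians, and -0.10 to -0.06 without single arrays. Centring moved the median of all genes from 0.03 to -0.06, and the members below 0 from 64 to 80 of 91. The median relative to genes of the same level was -0.0616 with array weights and -0.06 to -0.03 without single arrays. Signs changed for complex II, at -0.08 with centring, -0.0257 with array weights, -0.0226 without empty vector 3, -0.0344 without IKZF1 2 and -0.0399 without both, for complex IV, at 0.01 with the mean of probe sets and 0.0017 without empty vector 1, and for Cycs, at 0.03 without both arrays. The 8 members recomputed singly (Ndufs5, Ndufv1, Ndufaf6, Uqcrh, Uqcrq, Cox7a1, Cox6a2 and Atp5md) kept their sign under all alternatives. The replicate block changed no call of a member beside the 6 named. With 3 arrays a group, the members' SEs limit what single subunits can show.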
